A study of Bos taurus with 63 samples.

Results

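Lactoferrin (LTF, ENSBTAG00000001292) and haptoglobin (HP, ENSBTAG00000006354) were followed in leukocytes of Holstein dams and their calves. They are 2 of the 23010 genes in the count table and were picked by identifier, with earlier results of these data known. The study drew blood from German Holstein dams in the last days before calving and from calves in the first weeks after birth, lysed the red cells and sequenced poly(A) RNA of the remaining cells; the labels name the tissue whole blood. The control dams (n = 19) and the dams under direct heat stress (HS, n = 12) differed in the temperature-humidity index of the barn on the day before sampling, where a daily mean of 60 or more counted as HS. The control calves (n = 30) carried the label without HS. No dam or calf received an experimental agent, and HS came from the weather.

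Of the 63 libraries, 61 belonged to these groups. One more calf carried an HS label, and one more library, labelled as a dam, had no HS status. The profile of the latter lay nearer to the calves than to the dams, but far from both. These libraries are given apart from the comparisons. The labels do not pair dams with calves and give no calf ages in days. Total counts ranged from 4340680 to 19584521 reads per library with a median of 7271841. The control calf 2015 stood apart from the other calves, with 119 genes at 10 or more times the calf median (in CPM, reads scaled to the size of the library, after adding 1 CPM to the median), where the median calf had 3 such genes. The main calf values are therefore also given without calf 2015.

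LTF encodes an iron-binding glycoprotein that neutrophil precursors store in their specific granules, and that is also secreted into milk and other fluids. It withholds iron from microbes and binds bacterial surfaces. HP encodes the plasma protein that captures free haemoglobin, is made mainly in the liver as an acute phase protein of cattle, and is also held in neutrophil granules. In RefSeq's annotation of ARS-UCD2.0 both genes are protein-coding and overlap no other gene. LTF lies between LRRC2 and CCRL2, and HP between TXNL4B and DHODH.

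LTF was a low transcript in the dams and a higher one in the calves. In the control dams its level was 0.495 CPM in the lowest animal, 3.48 CPM at the median and 49.99 CPM in the highest. The direct HS dams ran from 0.663 CPM over a median of 4.78 CPM to 29.5 CPM. The control calves ran from 2.88 CPM over a median of 19.2 CPM to 192 CPM. The ranges of the 3 groups overlapped, but 9 of the 19 control dams lay below the lowest calf and 2 of the 30 calves lay above the highest control dam.

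A few animals carried much of the LTF signal. The mean was 7.28 CPM ± 11.8 (SD, n = 19) in the control dams, 7.23 CPM ± 7.74 (SD, n = 12) in the direct HS dams and 25.98 CPM ± 34.6 (SD, n = 30) in the control calves. The 3 highest animals held 62.0% of the summed LTF level of the control dams, 59.7% of that of the direct HS dams and 38.7% of that of the calves. Control dam 1811 reached 49.99 CPM and control dam 1463 reached 24.2 CPM, where the next dam of that group had 11.4 CPM. Calf 2013 had 192 CPM, and the second highest calf, 2015, had 60.1 CPM. Without its highest animal each group's mean came to 4.91 CPM, 5.20 CPM and 20.2 CPM in the same order.

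HP was well covered, with 513 reads or more in every one of the 61 libraries. Its level in the control dams ran from 84.8 CPM over a median of 248 CPM to 749 CPM. In the direct HS dams it ran from 122 CPM over a median of 231 CPM to 1246 CPM. In the control calves it ran from 66.5 CPM over a median of 430 CPM to 1399 CPM. The means were 311 CPM ± 177 (SD, n = 19), 351 CPM ± 325 (SD, n = 12) and 447 CPM ± 295 (SD, n = 30). The groups overlapped over most of their range, and 3 calves lay below the lowest control dam while 3 lay above the highest. Without calf 2015 the calf medians were 17.2 CPM for LTF and 410 CPM for HP, with means of 24.8 CPM ± 34.6 and 414 CPM ± 239 (SD, n = 29).

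**Figure D1:**
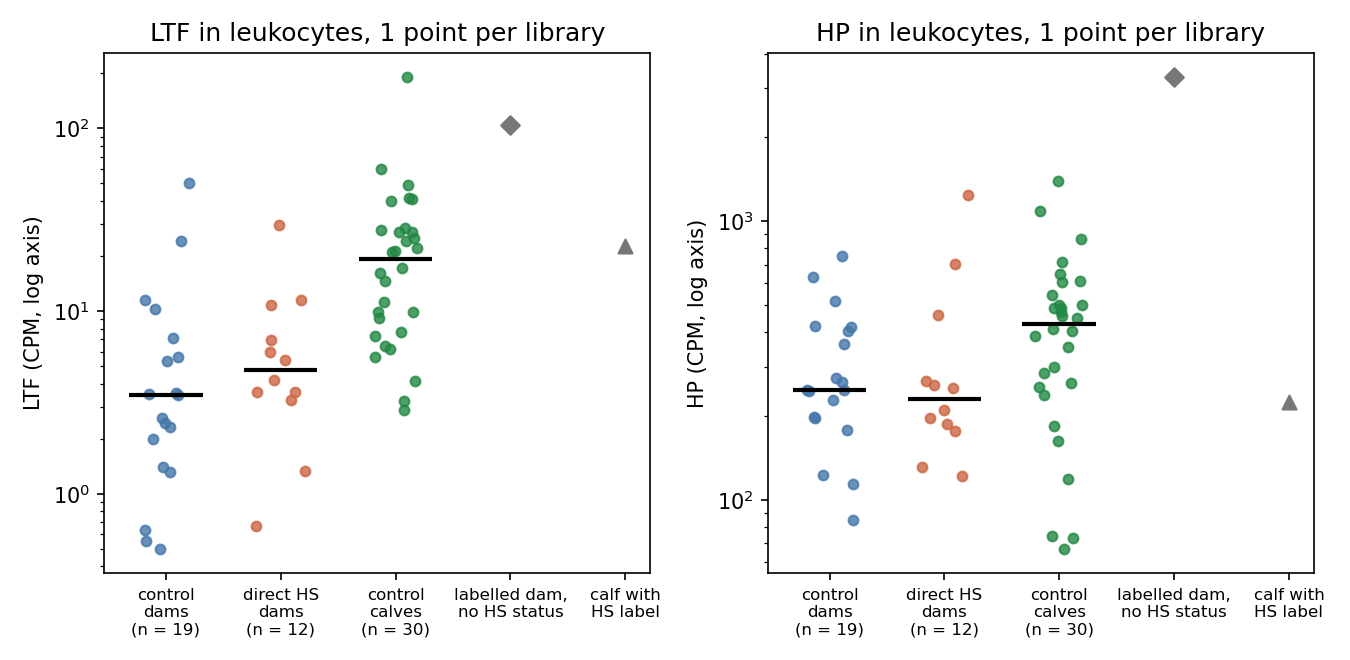
Levels of LTF (left) and HP (right) in CPM on a log axis, with 1 point per library and a bar at each group's median. Most calves lie above the LTF median of both dam groups, the HP groups overlap widely, and the library labelled as a dam without HS status (diamond) has the highest HP level of all at 3304 CPM.

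By mean CPM, HP stood among the more abundant genes: among genes with mean counts of 14 or more, 4.68% had a higher mean in the control dams, 4.196% in the direct HS dams and 3.32% in the control calves. The corresponding shares for LTF were 79.0%, 78.7% and 50.1%. These CPM are not divided by transcript length, so the levels of LTF and HP are not compared with each other.

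The first comparison asked whether either gene differed between the direct HS dams and the control dams. Neither was called by edgeR's quasi-likelihood test, in which 310 of 11645 genes (2.66%) passed an adjusted p of 0.05. That background count was itself unstable, at 130 genes without dam 1516, 599 without dam 1568 and 65 in one fit of all 61 libraries. The log2 fold change of LTF, direct HS minus control, was -0.02 with a standard error of 0.55 and an approximate 95% interval from -1.14 to 1.10 (adjusted p = 0.987, edgeR). That of HP was 0.18 with a standard error of 0.32 and an interval from -0.47 to 0.83 (adjusted p = 0.813, edgeR). The LTF interval leaves room for a change of more than 2-fold in either direction. Single dams set the sign of the LTF value, which was 0.54 without control dam 1811 and -0.46 without direct HS dam 1835, and the HP value was -0.20 without direct HS dam 1800. The test was not adjusted for other traits of the dams. The study's own model also held calving year and season, lactation class, days to calving and components of genomic relationship. The labels give none of these, so HS cannot be told apart from them here.

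The second comparison set the control calves against the control dams. LTF rose in the calves by 1.84 on the log2 scale with a standard error of 0.46, a 3.58-fold difference with an interval from 1.88 to 6.84 (adjusted p = 0.00128, edgeR). In this comparison 4665 of 11762 genes (39.7%) were called, so a call by itself does not set LTF apart, but only 2.22% of the genes had a larger absolute fold change. Over all pairs of a calf and a control dam, the share in which the calf had the higher LTF level was 0.846. Leaving out single animals gave values from 1.479, without calf 2013, to 2.41, without control dam 1811, and LTF was called each time (adjusted p from 2.66e-05 to 0.00361, edgeR). Without calf 2015 the value was 1.77 (adjusted p = 0.00181, edgeR).

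HP did not pass the test in the same comparison. Its log2 fold change, calves minus control dams, was 0.53 with a standard error of 0.27 and an interval from -0.02 to 1.08 (adjusted p = 0.116, edgeR). Calf 2015 had the highest HP level of the calves, and without it the value was 0.42 (adjusted p = 0.199, edgeR).

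Against the direct HS dams, where 3935 of 11727 genes (33.6%) were called, LTF in the control calves was again higher, by 1.85 on the log2 scale with a standard error of 0.51 (adjusted p = 0.00446, edgeR). HP differed by 0.36 with a standard error of 0.35 and did not pass (adjusted p = 0.440, edgeR). Without calf 2015 the values were 1.78 for LTF (adjusted p = 0.00561, edgeR) and 0.25 for HP (adjusted p = 0.597, edgeR). This comparison shares its calves with the one before and its dams with the first, so it is not separate evidence. In leukocyte RNA, a larger share of LTF-expressing cells and more LTF RNA in each of them cannot be told apart, and the shares of neutrophils or their precursors were not measured here.

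**Figure D2:**
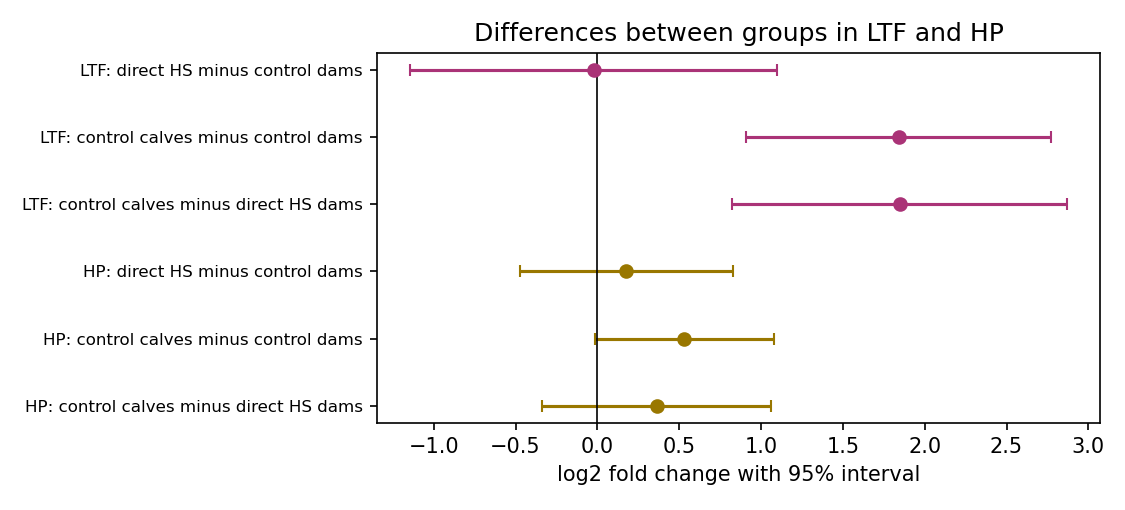
Log2 fold changes of LTF and HP (points) with approximate 95% intervals (bars) in the 3 comparisons between groups. The intervals of LTF in both calf comparisons lie above 0, and the other 4 intervals include 0.

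The ratio of HP to LTF reads within a library restates the same values on a scale free of library size, and was chosen after they were seen. It is no separate evidence beside the LTF difference. The median library held 95.1 HP reads per LTF read in the control dams, 61.04 in the direct HS dams and 22.9 in the control calves. The range was from 4.91 to 939 in the control dams and from 5.65 to 98.9 in the calves. The top of the control dam range, dam 1711, was 2816 HP reads over 3 LTF reads, where no calf had under 16 LTF reads. On the log2 scale, after adding 0.5 reads to each count, the mean ratio was 6.25 ± 2.01 (SD, n = 19) in the control dams and 4.42 ± 1.03 (SD, n = 30) in the calves. The difference of the calves from the control dams was -1.82 (two-sided permutation test of 100000 resamples, adjusted p over 3 comparisons = 0.0003), and from the direct HS dams it was -1.38 (permutation test, adjusted p = 0.00471). Without calf 2015 these differences were -1.82 and -1.38. The 2 dam groups did not differ beyond their spread, with a difference of -0.44 (permutation test, p = 0.539).

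Both genes varied between animals of the same group more than most genes. The SD of log2 CPM of LTF was 1.61 in the control dams, 1.32 in the direct HS dams and 1.34 in the control calves. These values ranked 22nd of 11550 genes, 48th of 11482 and 160th of 11586. The SD of HP was 0.828, 0.988 and 1.09, which ranked 440th, 181st and 406th, where the median gene had an SD of 0.308, 0.300 and 0.385. The lowest and highest control dams were 101-fold apart in LTF and 8.84-fold apart in HP, and among the calves these ratios were 66.7 and 21.04. Single animals set the LTF ratios, which were 48.98 without dam 1811 and 20.9 without calf 2013. The lowest control dam, 1712, had 3 LTF reads, for which counting error alone allows 0.102 to 1.45 CPM (exact 95% Poisson interval). Without calf 2015 the SD in the calves was 1.31 for LTF and 1.04 for HP.

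**Figure D3:**
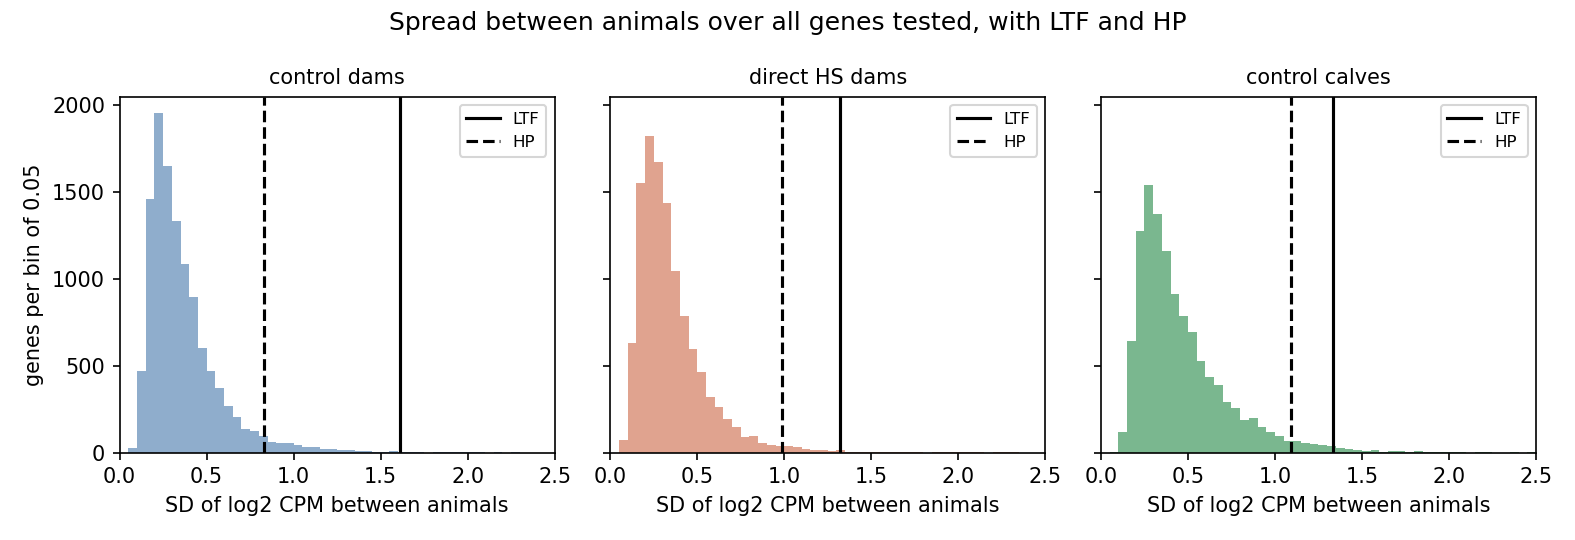
Number of genes (vertical axis) by the SD of log2 CPM between animals (horizontal axis, bins of 0.05) in each group, with LTF as a solid and HP as a dashed line. Both lines lie in the right tail in each of the 3 groups, with LTF farther out.

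The counting error of the reads was small beside this spread. LTF rested on 3 to 391 reads per library in the control dams, with 4 dams under 10 reads, and on 16 to 1192 reads in the calves. Poisson counting accounted for an estimated 4.66% of the variance of log2 CPM of LTF in the control dams, 4.72% in the direct HS dams and 1.35% in the calves. For HP the estimate was at most 0.184% in any group. The spread itself did not differ detectably between the groups for either gene (6 two-sided permutation tests of 100000 resamples on the distances from the group median, all with adjusted p = 0.780).

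LTF and HP were correlated in the calves, and no correlation was detectable in the dams. Among the 30 control calves Pearson's r of log2 CPM was 0.66 (permutation p = 7e-05, adjusted over 9 relations 0.00063) and Spearman's rho was 0.55 (permutation p = 0.00194, adjusted 0.0175). Without the 2 calves farthest from the median in LTF, r was 0.59 and rho 0.46. Without calf 2015 r was 0.63 and rho 0.50, and without the 3 calves lowest in HP, which lay at 74.2 CPM or less where the next calf had 119 CPM, r was 0.61 and rho 0.43.

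In the control dams r was -0.15 (permutation p = 0.532, adjusted 0.843) and rho was -0.23 (permutation p = 0.349, adjusted 0.785), with r at -0.15 without the 2 farthest dams. In the direct HS dams r was -0.12 (permutation p = 0.691, adjusted 0.843) and rho was -0.32 (permutation p = 0.308, adjusted 0.785), with r at -0.07 without the 2 farthest dams. The control dams highest in LTF, 1811 and 1463, had HP levels of 245 CPM and 229 CPM, close to the group's median. The direct HS dam highest in HP, 1800, had an LTF level of 6.96 CPM.

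**Figure D4:**
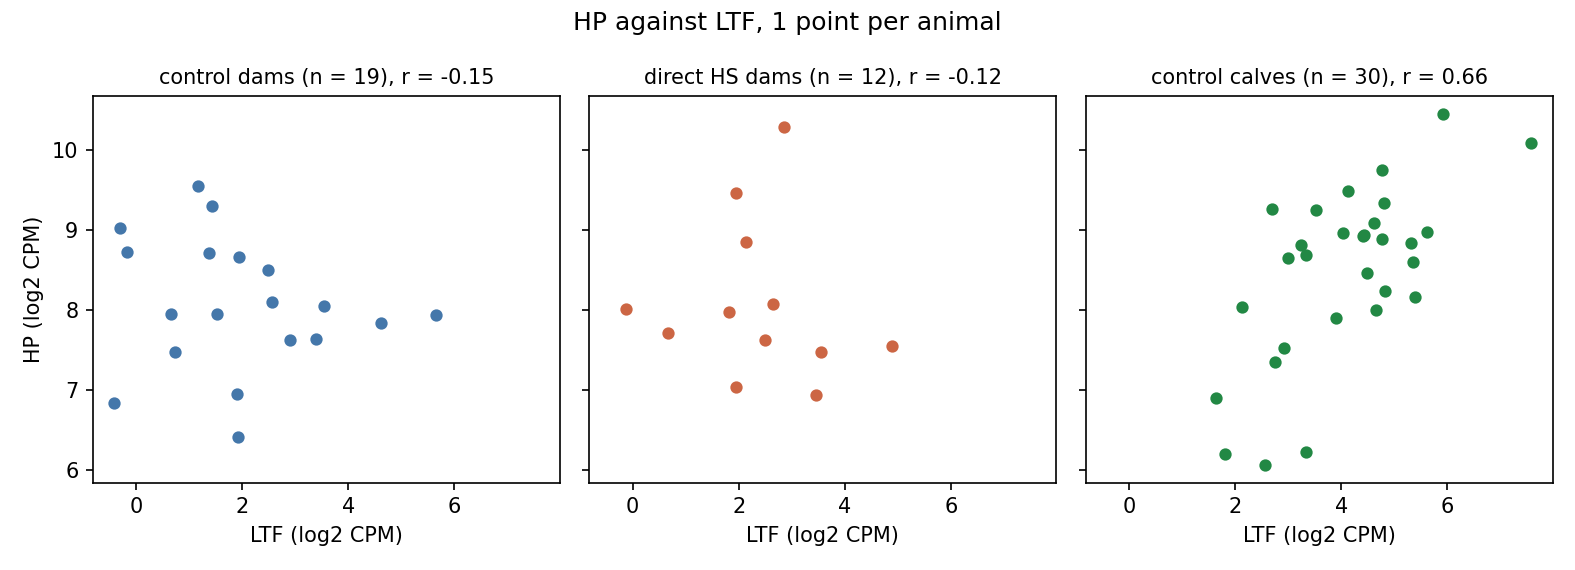
HP (vertical axis, log2 CPM) against LTF (horizontal axis, log2 CPM), with 1 point per animal, in the control dams, the direct HS dams and the control calves. The points rise together in the calves (r = 0.66) and show no such trend in either dam group.

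The difference between the groups was tested directly, after the values were seen, by permuting group labels over pairs standardised within their group. The r of the calves exceeded that of the control dams by 0.82 (permutation p = 0.00389, adjusted over 3 comparisons 0.0117) and that of the direct HS dams by 0.79 (permutation p = 0.0129, adjusted 0.0193). Without calf 2015 these differences were 0.79 (adjusted permutation p = 0.0197) and 0.76 (adjusted permutation p = 0.027). The r values of the 2 dam groups differed by 0.03 (permutation p = 0.928). No relation of either gene with library size passed the test (6 relations, lowest adjusted permutation p of r = 0.843). In the 12 direct HS dams these relations rested on few libraries. Without the 2 farthest from the median library size, the r of HP went from -0.35 to 0.21 and that of LTF from -0.05 to -0.44. A relation with library size was therefore not settled there.

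Set against the other 11377 genes whose mean counts reached 14 in dams and in calves, HP ranked 17th by its rho with LTF in the calves and 9769th in the 31 dams, whose values were centred on their group mean. LTF ranked 235th by its rho with HP in the calves and 8445th in the dams. The calf ranks depended on calf 2015, without which HP ranked 42nd and LTF 342nd. These ranks are descriptions with no test, over libraries that differ in depth and whose cell makeup was not measured.

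The gene most like LTF was ENSBTAG00000002635 in both generations, with a rho of 0.83 over the 31 dams and 0.92 over the 30 calves. Its median level was 2.01 CPM in the control dams, 4.24 CPM in the direct HS dams and 7.33 CPM in the control calves. It was picked after its values were seen, and its identifier could not be paired with a symbol here. For HP the single most like gene was not the same in dams and calves: ENSBTAG00000007531 had a rho of 0.80 with HP in the dams and 0.65 in the calves, and ENSBTAG00000002290 had 0.54 in the dams and 0.82 in the calves.

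**Figure D5:**
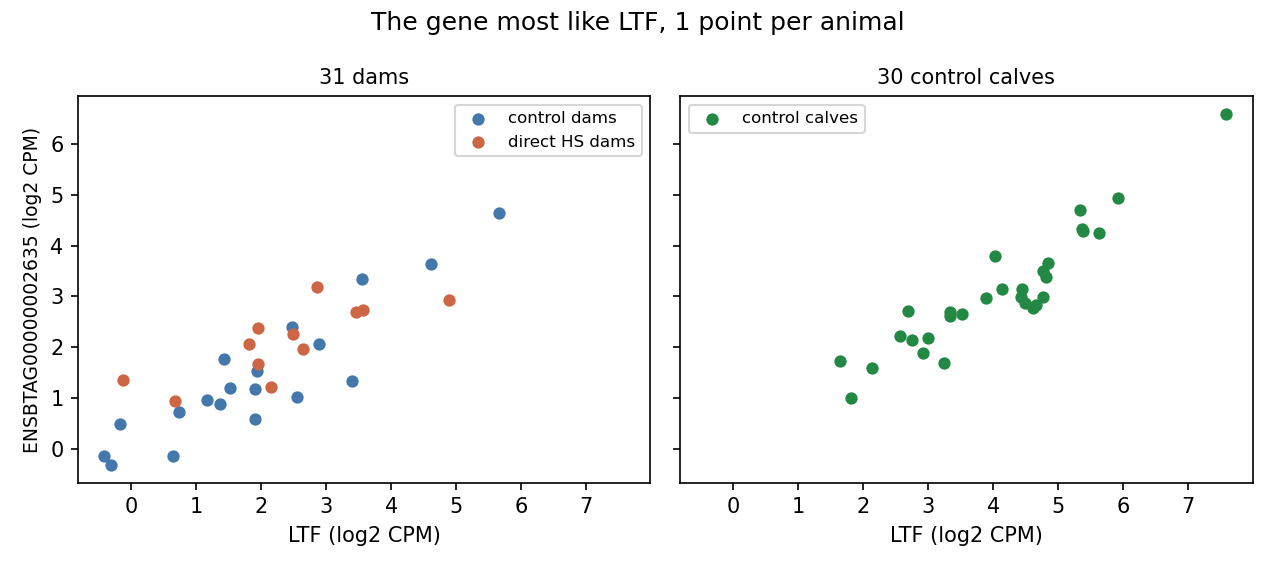
Level of ENSBTAG00000002635 (vertical axis, log2 CPM) against LTF (horizontal axis, log2 CPM), with 1 point per animal, in dams and calves. The points follow LTF in both generations, with a rho of 0.92 in the calves. The rho of 0.83 in the dams was taken after centring each dam group on its mean, which the plotted values are not.

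Of the 50 genes most like each member, LTF and HP shared 0 in the dams and 3 in the calves. Between dams and calves, LTF shared 1 of its 50 genes and HP shared 5, so beyond ENSBTAG00000002635 no other gene of the LTF list was common to both generations.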

How the data were processed

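The authors trimmed reads with cutadapt 4.2, checked them with FastQC 0.12.1 and aligned them with STAR 2.7.11a to ARS-UCD1.2. The deposited values are raw counts per gene, of 23010 genes in 63 libraries; the strand setting is not given in the sources used here. Libraries were made with an oligo-dT kit and read single-end, so CPM follow the number of fragments and are not per length. Groups came from the labels. Replicates are separate animals.

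Genes whose mean count reached 14 over the libraries of a comparison were tested with edgeR 4.0.16 (TMM factors, quasi-likelihood, Benjamini-Hochberg adjustment) in R 4.3.3, and called at an adjusted p under 0.05. The group was the only term in each main fit. Standard errors were taken from the F statistic, and the 95% intervals are approximate. Log2 CPM used a prior count of 2. Permutation tests used 100000 resamples, two-sided. Alternatives included RLE factors, DESeq2 1.42.0, limma-voom (limma 3.58.1) and other filters.

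The members and lists were chosen with earlier results of these data known. The named genes were to be LTF and HP, called genes of 16 lists and the genes most like each member, all matched by symbol. The reference table (RefSeq, ARS-UCD2.0, 37063 genes) paired 0 identifiers with symbols, so the lists, with the cell type markers, were not analysed here. The names LTF and HP came with the identifiers. Within groups, no 2 libraries agreed within sampling noise (mean chi-square per gene at least 8.62).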

Additional observations from a re-analysis of the deposited data

Results flagged for a closer look

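The library labelled as a dam without an HS status entered no comparison. It held 571 LTF reads, or 104 CPM, which is 2.09 times the highest of the 31 dams of known status, and 1 control calf lay above it. It held 18086 HP reads, or 3304 CPM, above all 61 libraries of the groups and 2.65 times the highest dam. It was picked out because both levels lay above those of all 31 dams of known status. The study left it out because it grouped with the calves in expression, and also reported it as an outlier in genomic relationships and metabolites. Over 11378 genes its root mean square distance on the log2 scale was 0.883 to the mean calf profile, 0.920 to that of the control dams and 0.935 to that of the direct HS dams. All 31 dams of known status lay nearer to the dams and all 30 control calves nearer to the calves. The dam farthest from the control dam mean, 1837, lay at 0.597. Among the control calves only 2015, at 0.952, lay farther from the calf mean than this library, and the next, 2010, lay at 0.710. The library therefore lay far from both generations. Its generation was not settled by these values.

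The correlation of LTF with HP differed between generations by a test of the difference itself. The r of the control calves exceeded that of the control dams by 0.82 and that of the direct HS dams by 0.79. No cause of the difference was tested.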

How the results depend on the processing

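LTF remained called in the calves against the control dams under all 10 other settings, from 1.77 to 2.20 on the log2 scale, and with each of 49 animals left out (1.479 to 2.41). HP was called in none of them (left-out range 0.42 to 0.65, adjusted p from 0.0537 to 0.199). In the dams, the count of called genes was 136 without a filter, 65 in one fit of 61 libraries, 506 with DESeq2, and 130 to 599 with 1 dam left out. LTF, direct HS minus control dams, was 0.42 with limma-voom and -0.46 to 0.54 with 1 dam left out; HP was -0.20 to 0.29. Differences in SD changed sign for LTF, calves minus direct HS dams, with a prior count of 0.5 (-0.043) and with 1 animal left out (-0.14 to 0.24). For HP they changed sign with the median absolute deviation (-0.32, direct HS minus control dams; -0.0023, calves minus control dams) and with 1 dam left out (-0.089 to 0.24). The causes were not tested. The r of LTF with HP in the calves was 0.62 to 0.71 with 1 calf left out. With 1 dam left out it was -0.32 to -0.07 in the control dams and -0.29 to -0.03 in the direct HS dams. Leaving out 3 calves named in earlier results of these data (2008, 2010 and 2015), added after the data were seen, changed no call. Residuals on neutrophil markers were not run, since no marker could be matched. No paired analysis was possible because the labels do not pair the animals. LTF in dams with under 10 reads is the least precise value.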

Other observations

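The calf labelled with HS, the only one of its kind, had 22.6 CPM of LTF, with 12 of the 30 control calves above it, and 225 CPM of HP, with 24 control calves above it. The labels do not say whether its HS was direct or maternal.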
